A study of Mus musculus with 1814 samples.

Results

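Dark zone germinal center B cells sampled at 30 h were compared with those sampled at 12 h, within each of 2 sequencing experiments of mouse single cells. The cells were the wells labelled Dec positive and dark zone, and they numbered 227 of the 1814 wells of the series. Experiment 3 held 43 cells of 12 h and 62 of 30 h, and experiment 4 held 55 and 67. Cells from germinal centers were index-sorted into 96 well plates (4 plates in each experiment, each plate with cells of both times), and SmartSeq2 libraries, which cover whole transcripts and carry no molecular identifiers, were made from each well. All groups used here carried the Dec positive label, and their genotype was entered as NA. The labels name no strain, age or animal, and they state neither what Dec stands for nor from which event the hours run. The experiment was therefore the replicate (n = 2), and cells and plates within it were not. The p-values measure how unevenly the zone and time groups differed between these experiments, after an even shift between experiments was removed. Nothing in the labels says that the experiments used separate animals, so that spread may be technical.

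Germinal centers are the sites in lymphoid tissue where B cells improve their antibodies. In the light zone, B cells present antigen to T helper cells and receive CD40 and other signals, which activate NF-kB and MYC. Selected cells move to the dark zone, where they divide and mutate their antibody genes before they return. Entry into the cell cycle runs through D cyclins and the kinases CDK4 and CDK6, which release E2F factors from retinoblastoma proteins. E2F factors then drive the genes of DNA replication, and B-MYB (Mybl2) and FOXM1 drive the genes of mitosis. The series' title places cyclin D3 at the center of dark zone cycling, and the comparison asks which transcripts differ between earlier and later dark zone cells.

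Sequencing depth was alike at both times. The median number of expected counts per cell was 195149 at 12 h and 197080 at 30 h in experiment 3, and 340220 and 342457 in experiment 4. All 5 B cell markers and all 6 germinal center B cell markers had reads in each of the 4 groups. Every single cell had reads of some B cell marker. Some germinal center marker had reads in 58 of 62 cells (93.5%) of experiment 3 at 30 h and in every cell of the other groups. Of 14 myeloid markers, 11 to 13 were at 0 in each group, among them Lyz2, Cd14 and Adgre1, and of 7 stromal markers 6 were at 0. Of 13 T cell markers, 11 were at 0 at 12 h in both experiments, including Cd3e, Cd4 and Trac. At 30 h 2 were at 0 in experiment 3 and 10 in experiment 4, with summed levels of 107.2 and 171.1 CPM (counts per 1000000 counts of the group) at 12 h and 174.3 and 124.6 CPM at 30 h in experiments 3 and 4. The 5 plasma cell markers summed to 2747 and 4117 CPM at 12 and 30 h in experiment 3, and 1917 and 1678 CPM in experiment 4. Among them, Prdm1 and Sdc1 had reads in experiment 3 and none in experiment 4. The part of T cell and plasma cell marker reads in the results was not tested. Zones are told apart by CXCR4 and CD83 stains, so transcripts of these genes do not check the labels. The deposited cell table marked some of these cells for both zones: 4 of 43 and 9 of 62 cells at 12 and 30 h in experiment 3, and 14 of 55 and 27 of 67 in experiment 4.

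Fewer dark zone cells were in G1 at 30 h than at 12 h, by the phase that the authors assigned to each cell. In experiment 3 the G1 share was 60.5% at 12 h (26 of 43 cells, exact 95% binomial interval 44.4 to 75.02) and 40.3% at 30 h (25 of 62 cells, 28.1 to 53.6). In experiment 4 it was 41.8% (23 of 55 cells, 28.7 to 55.9) and 22.4% (15 of 67 cells, 13.1 to 34.2). The difference was thus -20.1 points in experiment 3 and -19.4 points in experiment 4, a mean of -19.8 ± 0.504 points (SD, n = 2 experiments), and the share was lower at 30 h on 8 of 8 plates. The intervals of the times overlap in each experiment, they cover counting error only, and no test was made over cells. The 2 times were paired within the 2 experiments, so an exact two-sided permutation test by sign flips cannot go below p = 0.5.

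The shares of both later phases were higher at 30 h. S phase took 25.6% of cells at 12 h and 33.9% at 30 h in experiment 3, and 29.1% and 37.3% in experiment 4. G2M took 13.95% and 25.8% in experiment 3, and 29.1% and 40.3% in experiment 4. Each of these shares was higher at 30 h on 6 of 8 plates. The G1 difference was small on 1 plate of experiment 4, plate D, at -0.702 points, and largest on plate C, at -28.2 points.

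**Figure D1:**
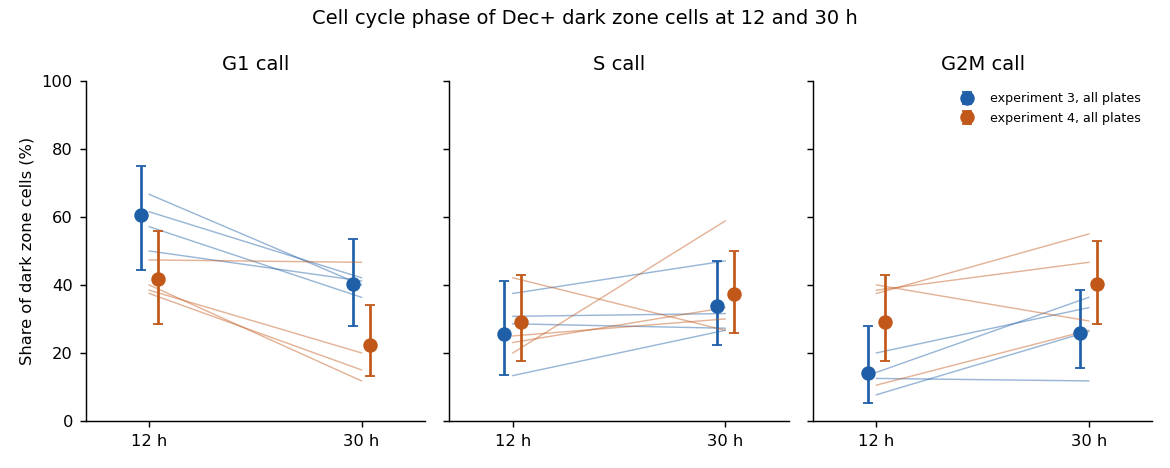
Share of Dec+ dark zone cells (percent, vertical axis) called G1, S or G2M by the authors at 12 and 30 h. Large points are the 2 experiments with exact 95% binomial intervals and thin lines are single plates. The G1 share is 60.5% and 40.3% in experiment 3 and 41.8% and 22.4% in experiment 4, and every plate has its lower value at 30 h.

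The cell cycle reporter read at the sorter was brighter at 30 h at the median of both experiments. FUCCI, a fluorescent reporter family whose proteins build up and are destroyed with the cell cycle, had a median intensity of 0.094 at 12 h and 0.1505 at 30 h in experiment 3, in arbitrary units divided by 1000. In experiment 4 the medians were 0.141 and 0.254. The median was higher at 30 h on 8 of 8 plates. The brightest cells differed more in experiment 4, where the 75th percentile was 0.5815 at 12 h and 7.3425 at 30 h, against 0.134 and 0.4085 in experiment 3. The labels do not name which FUCCI protein was measured. Cells called G1 had medians of 0.088 and 0.105 at 12 and 30 h in experiment 3 and 0.128 and 0.141 in experiment 4. Cells called G2M had 2.4725 and 3.8535 in experiment 3 and 0.2005 and 10.786 in experiment 4, so the signal was brighter in G2M cells than in G1 cells of the same group. The medians of surface stains went opposite ways in the experiments. On the same scale, CXCR4 medians were 0.494 and 0.6305 in experiment 3 but 0.585 and 0.471 in experiment 4, and CD83 medians were 0.28 and 0.236 in experiment 3 and 0.14 and 0.143 in experiment 4. On single plates the CXCR4 median was higher at 30 h on 4 of 8 and the CD83 median on 6 of 8.

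Cells of 30 h in experiment 4 also had more genes detected. The median was 2365 genes at 12 h and 3654 at 30 h there, while experiment 3 had 2257 and 2364. With every cell thinned to 100000 reads (2, 6, 1 and 0 cells of the 4 groups were shallower and left out), the medians were 2224.5 and 3479 in experiment 4 and 2172 and 2414 in experiment 3. Reads assigned to mitochondrial genes made up 1.28% and 1.40% at the median in experiment 3, and 4.07% and 3.66% in experiment 4.

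No single gene passed in the test over experiments. Counts were summed over the cells of each experiment, zone and time, and 11116 genes were tested with edgeR's quasi-likelihood test with experiment as block. At a Benjamini-Hochberg adjusted p under 0.05, 0 genes were higher (0% of those tested) and 0 genes were lower (0%) at 30 h. An unadjusted p under 0.05 was reached by 1.24% of the tested genes with more RNA at 30 h and by 0.513% (57 genes) with less. Together these lie below the share of 0.05 that an exact test reaches when nothing differs. In simulated counts the same test called 1 of 50 genes changed 2-fold and 19 of 50 changed 4-fold. The 0 calls therefore do not show that the times were alike. DESeq2 called 19 higher and 5 lower. Of those 19 genes, 16 had no read in either sum of 12 h, and 4 of the 5 had none in either sum of 30 h. Those averaging at least 20 CPM were E2f1 and Asb3.

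The genes that follow are therefore described by their values in each experiment, beside the share of all genes that behaved the same way. Log2 ratios of an experiment use CPM plus a pseudocount of 1 and understate differences of low genes, and those given with a standard error come from the edgeR fit. Of the 11116 genes, 25% had more RNA at 30 h in both experiments and 23.5% had less in both. Among the 6169 genes averaging at least 20 CPM these shares were 25.1% and 29.5%. Across all tested genes the log2 ratios of the 2 experiments had a Pearson correlation of 0.04, and 0.08 over the 6169 genes averaging at least 20 CPM. This correlation is across genes, which are not independent replicates. The tested genes had a median fitted log2 ratio of 0.03.

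E2f1, the E2F factor that activates replication genes once retinoblastoma proteins let go of it, had the smallest p among genes of at least 20 CPM with more RNA at 30 h. It lies on chromosome 2 (154559400 to 154569892, RefSeq on GRCm38.p6). Its level was 4.07 CPM at 12 h against 61.5 CPM at 30 h in experiment 3, and 1.61 CPM and 16.4 CPM in experiment 4. Both values of 30 h were above both of 12 h. Its means were 2.84 CPM at 12 h and 38.9 CPM at 30 h, so E2f1 reached the minimum of 20 CPM through the 30 h sums, and its place by p rests in part on that filter. The log2 ratio was 3.66 ± 0.83 (SE), with an edgeR adjusted p = 1 (unadjusted p = 0.000813) and a DESeq2 adjusted p = 0.000405. It was higher at 30 h on 8 of 8 plates, and 5 of the 8 plates had no E2f1 read at 12 h.

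The E2f1 reads came from few cells. At 12 h 4 of 43 cells of experiment 3 had any (9.30%, exact 95% interval 2.59 to 22.1), and at 30 h 17 of 62 did (27.4%, 16.9 to 40.2). In experiment 4 the cells with reads were 1 of 55 (1.82%, 0.0460 to 9.72) and 13 of 67 (19.4%, 10.8 to 30.9). After thinning to 100000 reads these shares were 7.32% and 26.8% in experiment 3, and 1.85% and 16.4% in experiment 4. The 12 h level of experiment 4 thus rested on 1 cell.

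Mybl2, which encodes B-MYB, an activator of mitotic genes that is itself an E2F target, was next by p. On chromosome 2 (163054327 to 163084688) it had 11.5 CPM at 12 h against 91.9 CPM at 30 h in experiment 3, and 29.6 CPM and 108.5 CPM in experiment 4. The times did not overlap, and 8 of 8 plates had more at 30 h. Its log2 ratio was 2.28 ± 0.63 (edgeR adjusted p = 1, DESeq2 adjusted p = 0.117). Reads of Mybl2 were found in 9.30% of cells at 12 h and 40.3% at 30 h in experiment 3, and in 18.2% and 61.2% in experiment 4.

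**Figure D2:**
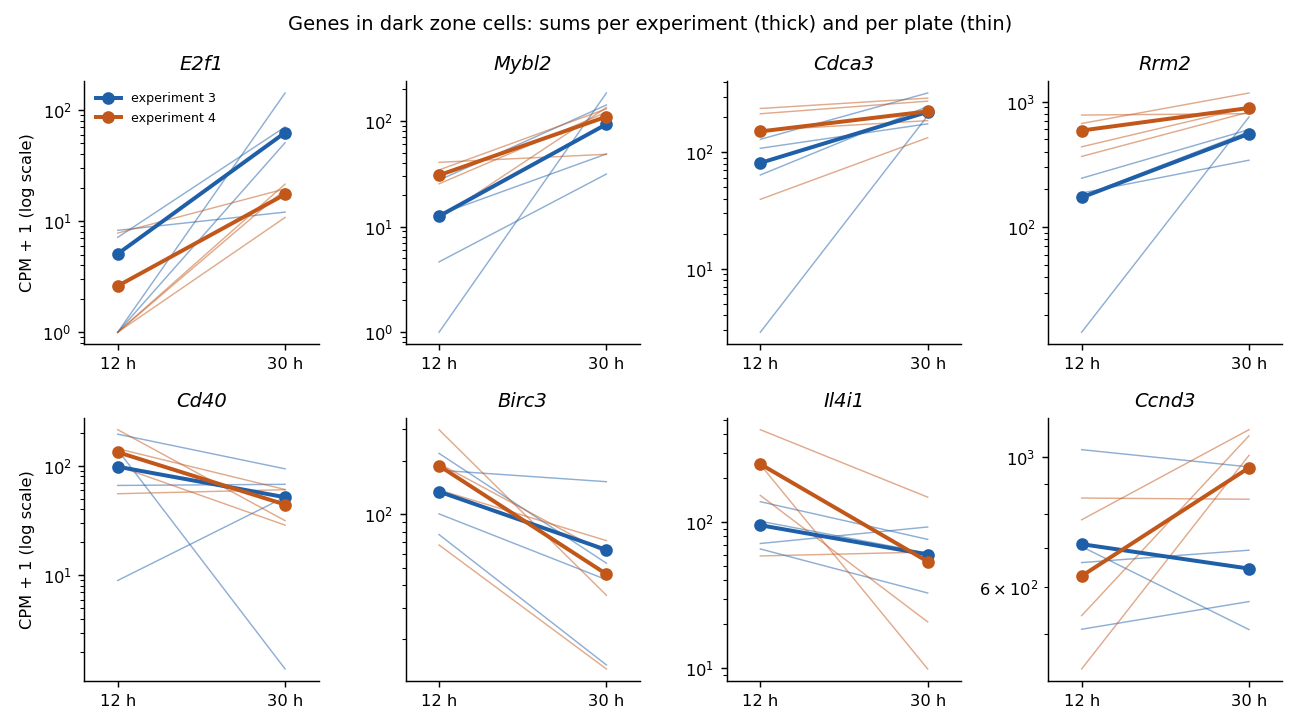
Level of 8 genes in dark zone cells at 12 and 30 h (CPM + 1, log axis). Thick lines are the sums of experiments 3 and 4 and thin lines the single plates in the same colors. E2f1, Mybl2, Cdca3 and Rrm2 are higher at 30 h on 8 of 8 plates, Birc3 is lower on 8 of 8, and Ccnd3 goes opposite ways in the experiments.

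Of 21 genes of D cyclins and G1 control, 8 (38.1%) were higher in both experiments and 3 (14.3%) were lower in both, against 25% and 23.5% of all genes. The median log2 ratio was 0.36 in experiment 3, 0.10 in experiment 4 and 0.48 in the fit, and 0 members passed in edgeR. Cyclin D3 RNA (Ccnd3, chromosome 17, 47505051 to 47599689) measured 709 CPM at the earlier time and 644 CPM at the later time in experiment 3, and 626 CPM and 958 CPM in experiment 4. The experiments went opposite ways, and the log2 ratio was 0.25 ± 0.32 (edgeR adjusted p = 1, higher on 5 of 8 plates). Ccnd2, another D cyclin, was low and went opposite ways as well, from 3.51 to 32.9 CPM in experiment 3 and from 70.5 to 3.36 CPM in experiment 4.

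Among the 8 members higher in both was Cdk4, the kinase partner of D cyclins, at 343 and 544 CPM in experiment 3 and 338 and 420 CPM in experiment 4 (log2 ratio 0.49 ± 0.26, 7 of 8 plates). E2f4, an E2F factor best known as a repressor, had 54.6 and 110.4 CPM and 26.2 and 57.4 CPM (1.08 ± 0.52, 7 of 8 plates). The other members higher in both were E2f1, Cdk6, the CDK inhibitors Cdkn2c and Cdkn2d, E2f8 and the E2F partner Tfdp1. Lower in both were E2f3 and the retinoblastoma relatives Rbl1 and Rbl2. None of these passed in edgeR (adjusted p = 1 for each).

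Most genes of the G1/S transition and DNA replication had more RNA at 30 h in both experiments. Of 46 tested members, 30 (65.2%) did, against 25% of all genes, and 2 had less in both, Mcm4 of the replicative helicase and Wdr76. The median log2 ratio was 0.42 in experiment 3, 0.34 in experiment 4 and 0.36 in the fit, and 0 members passed in edgeR. Pcna, the sliding clamp of DNA polymerases, had 258 CPM at 12 h against 424 CPM at 30 h in experiment 3, and 262 CPM and 445 CPM in experiment 4. Its 30 h values were both above its 12 h values (log2 ratio 0.74 ± 0.30, edgeR unadjusted p = 0.0308, adjusted p = 1, 7 of 8 plates). Mcm7, a subunit of the replicative helicase, had 309 and 566 CPM in experiment 3 and 416 and 626 CPM in experiment 4 (0.71 ± 0.35, 7 of 8 plates).

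A further list held the enzymes that supply nucleotides for replication. Of its 24 tested members, 15 (62.5%) were higher and 4 (16.7%) lower in both experiments, against 25% and 23.5% of all genes. The median log2 ratio was 0.50. Rrm2, the regulated subunit of ribonucleotide reductase, had 171.1 CPM at 12 h against 553 CPM at 30 h in experiment 3, and 587 CPM and 888 CPM in experiment 4. The 12 h value of experiment 4 was above the 30 h value of experiment 3, so the times overlapped across experiments, while 8 of 8 plates had more at 30 h (log2 ratio 0.97 ± 0.48). Tk1, a thymidine kinase, had 59.1 and 115.9 CPM and 90.8 and 155.1 CPM (0.86 ± 0.41, 6 of 8 plates). Umps, which makes UMP, had 63.9 and 116.02 CPM and 85.7 and 134.996 CPM (0.75 ± 0.36, 7 of 8 plates). Ctps, Ppat, Impdh1 and Dck were the members lower in both. Rrm2, Rrm1 and Tyms also stand in the G1/S list.

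The 20 genes of histones and chromatin assembly had 12 members (60%) higher and 0 lower in both experiments (median log2 ratio 0.24). Among all genes these shares were 25% and 23.5%. Hmgb2, a chromatin protein of dividing cells that is also counted in the mitosis list, had 686 and 1213 CPM in experiment 3 and 860 and 1310 CPM in experiment 4 (0.71 ± 0.32, 8 of 8 plates). Asf1b, a histone chaperone, had 118.8 and 301 CPM and 229 and 286 CPM (0.69 ± 0.45, 7 of 8 plates). Ezh2, the methyltransferase of Polycomb complex PRC2, had 89.7 and 142.2 CPM and 122.6 and 182.2 CPM (0.62 ± 0.38, 8 of 8 plates). Nasp, Uhrf1 and Chaf1b also stand in the G1/S list, and Ezh2 and Mtf2 in the list of genes typical of the dark zone.

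Genes of mitosis had the highest median fitted ratio of the 24 lists. Of 68 tested members, 43 (63.2%) were higher in both experiments and 4 (5.88%) were lower in both, Kif20b, Psrc1, Lbr and Gas2l3. The shares over all genes were 25% and 23.5%. The experiments differed in size, with a median log2 ratio of 0.96 in experiment 3 and 0.27 in experiment 4 (0.55 in the fit). In edgeR 7 members had an unadjusted p under 0.05, all higher at 30 h, while 0 passed after adjustment. Over all tested genes, 1.24% had such an unadjusted p with more RNA at 30 h. Cdca3, which helps trigger mitotic entry, had 80.2 CPM at 12 h against 222 CPM at 30 h in experiment 3, and 150.4 CPM and 224 CPM in experiment 4. All values of 30 h lay above those of 12 h, and so did 8 of 8 plates (log2 ratio 0.99 ± 0.38, adjusted p = 1). Reads of Cdca3 were found in 23.3% of cells at 12 h and 48.4% at 30 h in experiment 3, and in 40% and 70.1% in experiment 4. Hmmr, a spindle protein, had 33.7 and 93.7 CPM and 86.9 and 153.2 CPM (1.16 ± 0.45, 6 of 8 plates). Tubb4b, a beta tubulin, had 508 and 652 CPM and 567 and 1119 CPM (0.71 ± 0.30, 8 of 8 plates). Mki67, the source of the Ki-67 antigen, went opposite ways, with 201 and 413 CPM in experiment 3 and 560 and 329 CPM in experiment 4 (0.03 ± 0.48).

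Mitotic genes are known to share a promoter layout, in which CCAAT boxes, bound by NF-Y, stand before a CHR element, TTTGAA, bound by the complex that recruits B-MYB. These motifs were looked for in RefSeq windows of 300 bases, from 250 bases before to 50 after each gene's start, on both strands. Windows were found for 57 of the 70 listed mitotic genes, and the first listed window of a gene was used. Both CCAAT and TTTGAA were present in 32 of the 57 (56.1%), against 7.12% of 27025 genes with a window. CCAAT was in 77.2% of the mitotic windows and 37.9% of all, and TTTGAA in 66.7% and 18.1%. TTTCCCGC, an E2F site of replication genes, was in 0 of the 57 and in 1.11% of all. Windows were found for 35 of the 47 genes of the G1/S list, under the 80% needed, so the same check is void for that list. A match is a run of letters and says nothing of binding in these cells. The windows of Cdca3 (chr6:124829926-124830225, plus strand) and Hmmr (chr11:40733388-40733687, minus strand) show the mitotic layout. That of Mcm7 (chr5:138171834-138172133, minus strand, the first of its 2 listed windows) shows a replication gene. The other Mcm7 window has 1 CCAAT match and no TTTCCCGC. They are printed 5′ to 3′ on the strand of the gene, with each match to one of the 3 motifs or its reverse complement in capitals (RefSeq, GRCm38.p6):
Cdca3: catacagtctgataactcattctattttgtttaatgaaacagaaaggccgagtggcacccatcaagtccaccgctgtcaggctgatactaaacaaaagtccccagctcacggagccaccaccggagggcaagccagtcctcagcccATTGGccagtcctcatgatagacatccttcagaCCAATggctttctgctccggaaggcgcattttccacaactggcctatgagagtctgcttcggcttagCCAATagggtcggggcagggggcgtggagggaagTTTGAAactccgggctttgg
Hmmr: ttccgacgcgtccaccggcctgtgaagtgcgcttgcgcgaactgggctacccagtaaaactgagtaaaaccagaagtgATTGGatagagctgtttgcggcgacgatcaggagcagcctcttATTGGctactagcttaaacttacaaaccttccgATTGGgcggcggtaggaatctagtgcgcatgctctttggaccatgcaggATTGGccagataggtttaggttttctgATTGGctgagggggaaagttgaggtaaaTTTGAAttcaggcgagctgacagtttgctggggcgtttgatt
Mcm7: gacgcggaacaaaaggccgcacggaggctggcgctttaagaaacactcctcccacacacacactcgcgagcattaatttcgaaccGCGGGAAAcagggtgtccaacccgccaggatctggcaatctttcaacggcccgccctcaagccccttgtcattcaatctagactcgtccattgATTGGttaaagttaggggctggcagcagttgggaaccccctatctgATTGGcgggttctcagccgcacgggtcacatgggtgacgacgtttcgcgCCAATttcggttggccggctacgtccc
Cdca3 has 3 CCAAT matches and Hmmr has 5, each followed by 1 TTTGAA just after the start. Mcm7 has 3 CCAAT matches, no TTTGAA and 1 TTTCCCGC, which reads GCGGGAAA on this strand.

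Of 53 cytosolic ribosomal protein genes, 43 (81.1%) were higher in both experiments and 1, Rps6, was lower in both. Of all genes, 25% were higher and 23.5% lower in both. The median log2 ratio of this list was 0.25 in experiment 3, 0.23 in experiment 4 and 0.23 in the fit. On 8 of 8 plates 9 members were higher, against 1.86% of the 6169 genes averaging at least 20 CPM. Rps2, of the small subunit, had 2471 and 3419 CPM in experiment 3 and 1451 and 2450 CPM in experiment 4 (log2 ratio 0.60 ± 0.32). Rpl7a, of the large subunit, had 560 and 740 CPM and 332 and 739 CPM (0.73 ± 0.36). Many ribosomal protein genes have processed pseudogenes nearly identical to them, and reads may have been split among these.

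Of 41 genes of MYC-driven growth and ribosome biogenesis, 21 (51.2%) were higher and 4 (9.76%) lower in both experiments. The shares of all genes were 25% and 23.5%, and the list's median log2 ratio was 0.29. Grwd1, a ribosome assembly factor, had 18.5 CPM at 12 h against 62.5 CPM at 30 h in experiment 3, and 15.5 CPM and 48.1 CPM in experiment 4 (1.69 ± 0.62, edgeR unadjusted p = 0.0186, 7 of 8 plates). On 5 of 8 plates Grwd1 had no read at 12 h. Wdr12, which acts in maturation of the large subunit, had 28.4 and 78.8 CPM and 52.4 and 112.4 CPM (1.27 ± 0.60). Npm1, the nucleolar protein nucleophosmin, had 1314 and 2219 CPM and 2149 and 2749 CPM (0.55 ± 0.31, 8 of 8 plates). Myc itself showed no shared direction, with 34.1 and 64.6 CPM in experiment 3 and 109.8 and 42.3 CPM in experiment 4 (-0.44 ± 0.63).

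Glycolysis genes had 9 of 20 members (45%) higher and 2 (10%) lower in both experiments, against 25% and 23.5% of all genes (median 0.32). Ldha, lactate dehydrogenase, had 896 and 1275 CPM and 914 and 1595 CPM (0.66 ± 0.28, 6 of 8 plates), and Eno1, an enolase, had 543 and 744 CPM and 391 and 626 CPM (0.57 ± 0.25, 6 of 8 plates). Lists of mTORC1 targets (median 0.13) and the unfolded protein response (0.29) had medians of opposite sign in the experiments, at 0.32 and -0.06 and at 0.62 and -0.06. Nuclear genes of oxidative phosphorylation had a median of 0.10, with 18 of 47 members (38.3%) higher and 7 (14.9%) lower in both.

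**Figure D3:**
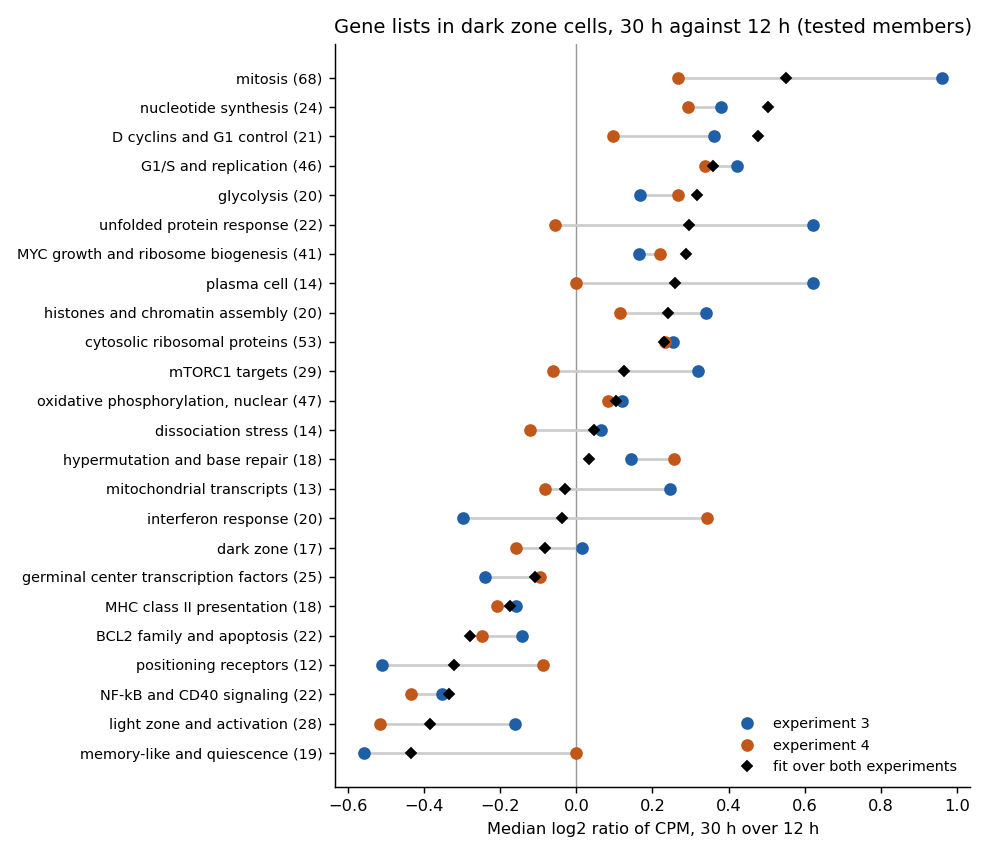
Median log2 ratio of CPM at 30 h over 12 h for 24 gene lists (number of tested members in brackets). Circles are the medians within experiment 3 and experiment 4 and diamonds the medians of the ratios fitted over both. Mitosis has the widest gap among the cell cycle lists (0.96 and 0.27), and the light zone and NF-kB lists are below 0 in both experiments.

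Of 28 tested genes of light zone activation, 15 (53.6%) had less RNA in both experiments, against 23.5% of all genes, and 1, Basp1, had more in both. The median log2 ratio was -0.16 in experiment 3, -0.52 in experiment 4 and -0.38 in the fit, and 0 members passed in edgeR. Within cells called G2M the list's median was above 0, at 0.18 and 0.16, and within S phase it was 0.05 and -0.26. Without the cells marked for both zones the fitted median was -0.10, and with experiment 1 added it was -0.76. Experiment 1 held only dark zone cells of 30 h and light zone cells of 12 h. The value with it added thus mixes zone with time. Cd40, the receptor for the T cell signal CD40L (chromosome 2, 165055614 to 165071654), had 96.9 CPM at 12 h against 50.6 CPM at 30 h in experiment 3, and 131.8 CPM and 43.2 CPM in experiment 4. Both values of 30 h were below both of 12 h (log2 ratio -1.34 ± 0.41, edgeR unadjusted p = 0.00639, adjusted p = 1). On single plates it was lower at 30 h on 5 of 8, and the shares of cells with Cd40 reads went opposite ways, at 32.6% and 17.7% in experiment 3 and 38.2% and 44.8% in experiment 4.

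Il4i1, a secreted amino acid oxidase induced by IL-4, had 94.4 and 59.1 CPM in experiment 3 and 249 and 52.8 CPM in experiment 4 (-1.76 ± 0.53, lower on 6 of 8 plates). Irf4, a transcription factor raised by CD40 and antigen receptor signals, had 38.9 and 11.1 CPM and 50.5 and 5.25 CPM (-2.65 ± 1.29, higher on 2 and lower on 4 of 8 plates). Its 12 h reads of experiment 3 came from 1 of 43 cells, against 5 of 62 cells with reads at 30 h, so without that cell no Irf4 read was left at 12 h there. In experiment 4 the cells with reads were 5 of 55 and 4 of 67. Irf4 averaged 44.7 CPM at 12 h and 8.16 CPM at 30 h, so it reached 20 CPM through the 12 h sums. Cd83 had 941 and 997 CPM in experiment 3 but 2070 and 869 CPM in experiment 4 (-0.78 ± 0.54), so its experiments went opposite ways. Cd86, a costimulatory ligand for T cells, had 176.05 and 111.99 CPM and 166.8 and 131.2 CPM (-0.46 ± 0.57). None of the 4 passed in edgeR (adjusted p = 1 for each), and CD83 staining takes part in the sort into zones.

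The list of NF-kB and CD40 signaling shares Cd40, Nfkb2, Nfkbia, Nfkbie, Relb and Traf1 with the light zone list. It had 14 of 22 members (63.6%) lower and 2 higher in both experiments, Nfkbiz and Traf3. Its median log2 ratio was -0.35 in experiment 3, -0.44 in experiment 4 and -0.33 in the fit. Of all genes, 23.5% were lower and 25% higher in both. Birc3, the NF-kB target that encodes the ubiquitin ligase cIAP2 (chromosome 9, 7847468 to 7873205), had 132.97 CPM at 12 h against 62.1 CPM at 30 h in experiment 3, and 186.1 CPM and 45.2 CPM in experiment 4. The times did not overlap, and 8 of 8 plates were lower at 30 h (log2 ratio -1.58 ± 0.46, edgeR unadjusted p = 0.0051, adjusted p = 1). The share of cells with Birc3 reads was 37.2% and 24.2% in experiment 3 but 32.7% and 32.8% in experiment 4. In experiment 4 at 12 h 1 cell held 41.7% of the Birc3 reads, and without it the level there was 116.1 in place of 194.3 CPM, both without TMM scaling, against 48.2 CPM at 30 h. Icam1, an adhesion molecule, had 170.7 and 63.6 CPM and 110.5 and 84.3 CPM (-0.93 ± 0.42, lower on 6 of 8 plates). Bcl2l1, which encodes the survival protein BCL-XL, had 50.1 and 17.3 CPM and 32.8 and 12.8 CPM (-1.47 ± 1.06). All 5 subunits of NF-kB (Nfkb1, Nfkb2, Rel, Rela and Relb) were lower in both experiments, by log2 ratios between -0.09 and -1.03 in the single experiments.

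**Figure D4:**
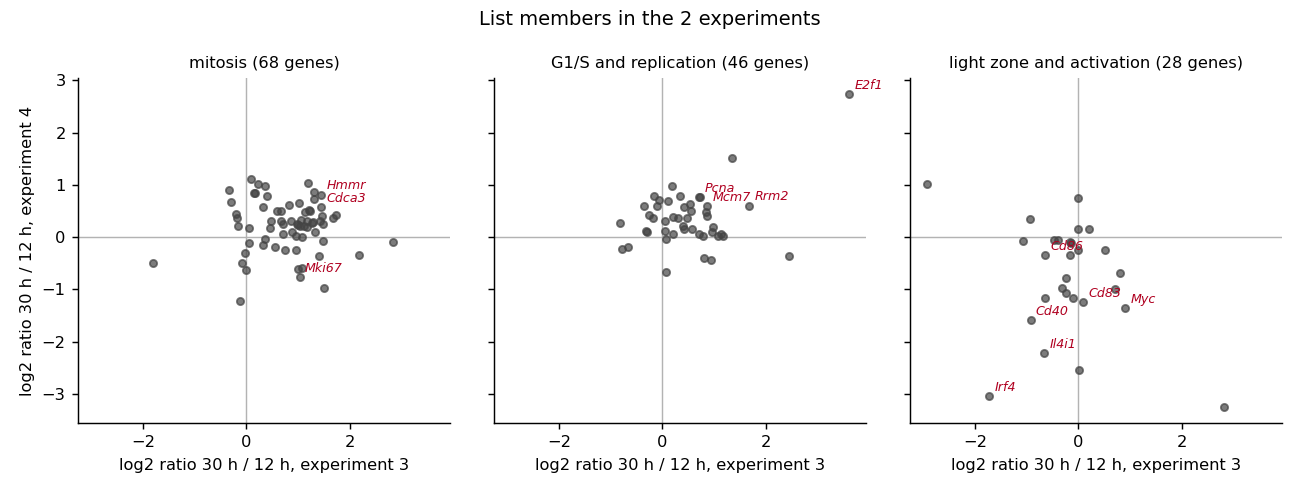
Log2 ratio of CPM + 1 at 30 h over 12 h for each tested member of 3 lists, in experiment 3 (horizontal axis) and experiment 4 (vertical axis), with some genes named. Points at upper right are higher at 30 h in both experiments (43 of 68 mitotic and 30 of 46 G1/S genes), and those at lower left are lower in both (15 of 28 light zone genes). The shares over all tested genes are 25% higher and 23.5% lower in both.

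MHC class II presentation genes had 11 of 18 members (61.1%) lower in both experiments and 1 higher, the protease gene Ctsb, with a median of -0.18. Of all genes, 23.5% were lower and 25% higher in both. Ciita, the master activator of MHC class II genes, had 418 and 377 CPM in experiment 3 and 385 and 258 CPM in experiment 4 (-0.36 ± 0.26). Germinal center transcription factors had 11 of 25 members (44%) lower and 3 (12%) higher in both, Mybl2 and Pou2af1 among the latter (median -0.11). Bcl6, the repressor that keeps the germinal center state, had 416 and 318 CPM and 164.5 and 150.8 CPM (-0.26 ± 0.39). Positioning receptors had 5 of 12 (41.7%) lower and 1 (8.33%) higher in both (-0.32). S1pr2, which holds B cells in the germinal center, had 1141 and 829 CPM and 742 and 594 CPM (-0.39 ± 0.25, lower on 6 of 8 plates).

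Genes typical of the dark zone went both ways, with 6 of 17 (35.3%) higher and 6 (35.3%) lower in both experiments (median -0.08). Of all genes, 25% were higher and 23.5% lower in both. Foxo1, a factor that the dark zone state requires, had 68.2 and 119.5 CPM in experiment 3 and 45.2 and 57.9 CPM in experiment 4 (0.58 ± 0.48, 6 of 8 plates). Cxcr4, the dark zone homing receptor, was low, with 16.3 and 15.8 CPM and 63.2 and 40.7 CPM (-0.17 ± 1.33). The list of hypermutation and base repair had a median of 0.03 with 6 of 18 members (33.3%) higher and 2 (11.1%) lower in both.

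Of the remaining lists, apoptosis genes had a median of -0.28 (3 higher and 6 lower in both of 22), memory-like genes -0.44 (4 and 7 of 19), plasma cell genes 0.26 (5 and 3 of 14), interferon response genes -0.04 (4 and 6 of 20), mitochondrial transcripts -0.03 (3 and 2 of 13) and dissociation stress genes 0.05 (3 and 4 of 14). Medians of these 6 lists had opposite signs or were 0 in one experiment, except for apoptosis genes (-0.14 and -0.25). Of all genes, 25% were higher and 23.5% lower in both.

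Further genes of small p lay outside the cell cycle lists. Among the 12 with more RNA at 30 h were U2af1, a splicing factor, with 173.8 and 316 CPM in experiment 3 and 100.3 and 220 CPM in experiment 4 (log2 ratio 1.00 ± 0.29, 8 of 8 plates), and Hdac2, a histone deacetylase, with 12.7 and 45.8 CPM and 33.7 and 85.6 CPM (1.60 ± 0.48, 8 of 8 plates). Hsp90aa1, the inducible HSP90 chaperone, had 184.1 and 429 CPM and 387 and 740 CPM (1.07 ± 0.36, 8 of 8 plates). Phgdh, the first enzyme of serine synthesis, had 280 and 419 CPM and 272 and 605 CPM (0.87 ± 0.30, 8 of 8 plates). The enzymes of amino acid metabolism Got2 (0.91 ± 0.31) and Ass1 (1.39 ± 0.50), Hnrnpab (1.55 ± 0.55), Lap3 (1.23 ± 0.45) and Rnf168, a ubiquitin ligase of the DNA damage response (2.59 ± 0.97), were the others besides E2f1, Mybl2 and Grwd1. Their unadjusted p in edgeR lay between 0.000813 and 0.0202.

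Among the 12 with less RNA at 30 h, Asb3, a subunit of a ubiquitin ligase, had 105.7 CPM at 12 h against 29.3 CPM at 30 h in experiment 3, and 146.2 CPM and 29.9 CPM in experiment 4. The times did not overlap (-2.07 ± 0.52, lower on 7 of 8 plates, edgeR adjusted p = 1, DESeq2 adjusted p = 0.031). Asb3 reads came from 11 of 43 and 9 of 62 cells in experiment 3, and 13 of 55 and 18 of 67 in experiment 4. The share of cells with reads was thus lower at 30 h in experiment 3 only. Lax1, an adaptor that restrains lymphocyte receptor signals, had 287.5 and 144.02 CPM and 154.1 and 75.2 CPM (-1.01 ± 0.37, lower on 8 of 8 plates). Asah1, the lysosomal acid ceramidase, had 138.7 and 46.98 CPM and 100.4 and 38.6 CPM (-1.49 ± 0.56, lower on 8 of 8 plates). Lrrfip1 (-1.12 ± 0.41) was also lower on 8 of 8. The others were Birc3, Il4i1, Cd40, the long noncoding RNA Tug1 (-1.12 ± 0.37), Ttc14 (-1.23 ± 0.42), the bromodomain gene Brd7 (-1.02 ± 0.37), the autophagy regulator Rubcn (-0.87 ± 0.32) and Mmut, methylmalonyl-CoA mutase (-2.40 ± 0.87). Mmut averaged 66.2 CPM at 12 h and 12.4 CPM at 30 h, so it reached 20 CPM through the 12 h sums. Of the 6169 genes averaging at least 20 CPM, 1.86% were higher on 8 of 8 plates and 0.438% (27 genes) were lower on 8 of 8. Of the same genes, 25.1% were higher and 29.5% lower in both experiments.

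Placed beside the other groups of the same experiments, the 12 h dark zone sums had the lowest E2f1 of all 15 sums. Dark zone cells had 36.1 and 10.2 CPM of E2f1 at 46 h and 60.7 and 21.01 CPM at 60 h in experiments 3 and 4. Light zone cells had 27.4 and 31.3 CPM at 12 h and 45.3 and 14.7 CPM at 30 h. The difference between the zones in the change from 12 to 30 h was 4.02 ± 1.10 on the log2 scale for E2f1 and 2.56 ± 0.87 for Mybl2, with an edgeR adjusted p = 1 for both. Mybl2 had 154.4 and 107.2 CPM in light zone cells of 12 h and 63.6 and 152.3 CPM in those of 30 h. For Il4i1 the difference was -2.23 ± 0.74, since light zone cells had 551 and 231 CPM at 12 h and 692 and 371 CPM at 30 h. E2f1, Mybl2 and Il4i1 were named for the small p of their dark zone change. That change is part of each difference given here and of the low rank of E2f1 at 12 h. These values are therefore no separate support for it. Over all genes 0 passed in this test of the zones (0% of 11116), and 332 had an unadjusted p under 0.05 (2.99%). Cd40 in the dark zone was at 41.2 and 45.4 CPM at 46 h and at 104.8 and 62.2 CPM at 60 h.

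**Figure D5:**
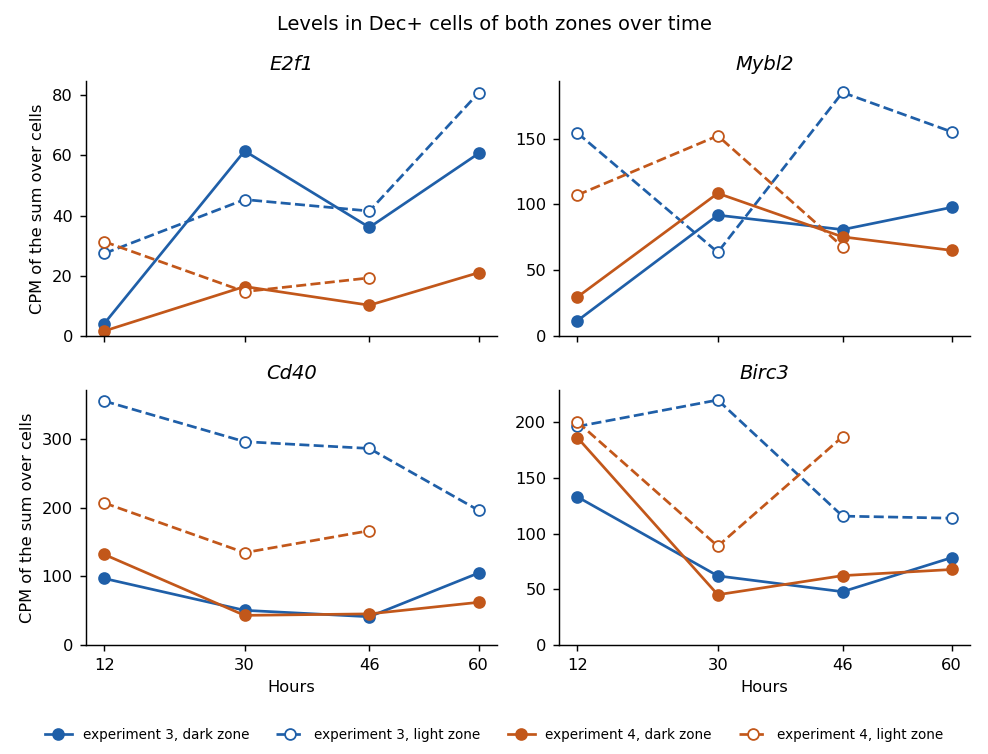
Level of 4 genes (CPM of the sum over cells, vertical axis from 0) at 12, 30, 46 and 60 h in Dec+ cells of the dark zone (filled, solid) and light zone (open, dashed) of experiments 3 and 4. The light zone sum of 60 h in experiment 4 held 5 cells and is not shown. E2f1 in the dark zone is 4.07 and 1.61 CPM at 12 h, below every other sum. It was named for the small p of its dark zone change from 12 to 30 h.

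The phase calls are made from transcripts of the same libraries, so the phase shares and the cell cycle lists are not independent of each other. Within single phases, groups were small (6 to 27 cells). Among G1 cells the mitosis list had a median log2 ratio of 0 in both experiments and the G1/S list had -0.32 and 0.26. Members with no read at either time give a ratio of exactly 0, as Hmmr did in G1 cells of experiment 4. A median of 0 therefore does not show that a list was unchanged. Among S phase cells the mitosis list had 0.56 and 0.20 and among G2M cells 0.06 and -0.05. MYC growth genes had 0.59 and 0.63 in S phase and 0.49 and 0.87 in G2M, but -0.05 and -0.72 in G1. Ribosomal protein genes were above 0 in all 3 phases of both experiments, from 0.22 to 0.45. The median over genes averaging at least 20 CPM was -0.02 and -0.08 in G1, 0.11 and 0.09 in S phase and 0.30 and 0.12 in G2M. The light zone list was at 0 and -0.34 in G1, 0.05 and -0.26 in S phase and 0.18 and 0.16 in G2M.

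E2f1 among S phase cells had 5.48 CPM at 12 h against 118.4 CPM at 30 h in experiment 3, and 4.87 CPM and 28.2 CPM in experiment 4. Among G1 cells E2f1 had 3.95 and 3.94 CPM in experiment 3, and 0 and 22.996 CPM in experiment 4. Among G2M cells it had 1.58 and 59.6 CPM, and 0 and 4.28 CPM. Mybl2 in S phase had 26.2 and 168.6 CPM, and 63.9 and 120.6 CPM. Mybl2 in G1 had 0 and 12.4 CPM in experiment 3 and 0 CPM at both times in experiment 4, and in G2M it had 27.7 and 92.8 CPM, and 29.3 and 162.9 CPM. Birc3 among G1 cells had 163.5 CPM at 12 h against 48.7 CPM at 30 h in experiment 3, and 418 CPM and 63.1 CPM in experiment 4. In S phase Birc3 went the other way, with 44.6 and 101.2 CPM, and 6.59 and 47.5 CPM. Cd40 was lower at 30 h in all 3 phases of both experiments, with log2 ratios between -0.22 and -2.00.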

How the data were processed

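Wells were grouped by their labels, and members and gene lists were chosen with earlier results of these data known. The authors deposited expected counts per gene and well, not normalized. The genome build mm10 and the tools RSEM 1.3.1, STAR 2.6 and Seurat 3.1.4 are listed in the submitters' processing notes with no role for each. Besides, the deposited cell table held, for each cell, a score of S phase and one of G2M, the percent of mitochondrial reads, a count of genes detected and sort intensity in arbitrary units. Its phase calls are the authors'. The deposited combined table (25125 genes) sets 2063 genes in experiment 3 and 2035 in experiment 4 to 0 that the tables per plate hold. Its 341 columns of other cells were not used.

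Expected counts were summed over cells per experiment, zone and time (at least 10 cells, 15 sums of experiments 3 and 4), rounded, filtered with filterByExpr, scaled by TMM and fitted with edgeR 4.0.16 (limma 3.58.1, R 4.3.3) with group and experiment as terms (6 residual degrees of freedom). SE is the log2 ratio divided by the root of F. Benjamini-Hochberg adjustment ran over all genes. Per the labels' protocols each plate held all conditions of a replicate, which pairs the groups. Deviations of same-experiment sums correlated at 0.08 to 0.25 (42 pairs). Scripts were tested on simulated data. DESeq2 1.42.0 was an alternative.

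Named genes were 11 fixed genes, the 12 of smallest p in each direction with a mean of at least 20 CPM and the same sign in both experiments, and up to 3 such genes per list. Intervals are exact (Clopper-Pearson) and cover counting error only. Reads carry no molecular identifiers. Cells were sorted singly, and no doublet caller was run.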

Additional observations from a re-analysis of the deposited data

How the results depend on the processing

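The 0 genes higher and 0 lower became 19 and 5 in DESeq2 and were 0 under the other alternatives, except that no count could be given without experiment 3 or without experiment 4, which leave no residual degrees of freedom. Without the replicate block (no pairing by experiment) 84 and 30 genes had an unadjusted p under 0.05, against 1.24% and 0.513% of 11116 with it, no adjusted call differed, and Ccnd2 (-1.03) and Mki67 (-0.039) turned negative. The cause of these differences was not tested.

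The G1/S median was 0.60 with plate sums, 0.34 to 0.42 with 1 experiment left out, and 0.013, 0.13 and 0.73 within G1, S and G2M cells. The mitosis median was 0 in G1 cells, where members with no read at either time can only give 0. The light zone median was -0.76 with experiment 1 added, -0.10 without the cells marked for both zones, 0.061 in S phase and 0.32 in G2M cells. Experiment 1 held no dark zone cells of 12 h, so values with it added mix zone with time. Cells of 1 phase were an alternative chosen after seeing the data, as were the thinning to 100000 reads and the Birc3 level without its top cell. The difference in the G1 share, points 30 h minus 12 h, was -26.7, -20.8, -8.82, -18.5, -22.5, -28.2 and -0.702 on plates 3, 4, 5, A, B, C and D alone, and -17.9 without the cells marked for both zones.

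Over the named genes, 16 values had the other sign under an alternative. With plate sums Myc was at 0.24, Cd86 at 0.18 and Cxcr4 at 0.12. With the mean of CPM per cell Ccnd2 was at -0.69 and Cxcr4 at 0.26. Ccnd2 was at -0.60 with the 4 dark zone sums alone and Bcl6 at 0.0048 with experiment 1 added. The log2 ratio of Mki67 was -0.0095 with the 8 dark zone sums and -0.019 without the cells marked for both zones. With 1 experiment left out, Ccnd3 ran from -0.14 to 0.61, Ccnd2 from -4.04 to 2.91, Myc from -1.36 to 0.90, Cd83 from -1.25 to 0.084 and Mki67 from -0.77 to 1.03. E2f1 and Asb3 passed in DESeq2 and in no other setting. E2f1 kept its sign in 13 of 13 settings (2.74 to 6.25, adjusted p from 0.000405 to 1). The E2f1 reads of 12 h in experiment 4 came from 1 cell, before and after thinning.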
